A study of Mus musculus with 16 samples.

Results

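The genes described here encode 3 families of splicing factors: the SR proteins (symbols starting Srsf and a number), the hnRNP proteins (Hnrnp) and the protein components of the spliceosomal snRNPs (Snrp). They were taken by symbol, without pseudogene names, and had to reach a mean of 1 TPM (transcript abundance scaled to a fixed total per library) over 16 mouse RNA-seq libraries. The rule found 43 genes among the 24411 rows of the tables, made up of 11 SR, 20 hnRNP and 12 snRNP genes. All 43 also passed the filter on low counts that left 16665 genes for testing.

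Whole-transcriptome RNA-seq was performed on celiac ganglia of 2-week-old mice and on tumors, from the Th-MYCN model, in which the Th promoter drives human MYCN in neuroectodermal cells. The Th-MYCN line is kept on a 129/SvJ background, while the Runx1t1 knockout came from another stock (CBB6) and was crossed in. The sources used here do not say whether the sequenced ganglia came from littermates. Background may therefore differ between the Runx1t1 genotypes, which could not be checked. Control ganglia (n = 4) were wild type at MYCN, that is without the transgene, and wild type at Runx1t1, and het-labelled control ganglia (n = 3) lacked the transgene and were labelled Runx1t1 heterozygote, from a line carrying insertional inactivation of 1 allele. MYCN ganglia (n = 3) were homozygous for the transgene with wild-type Runx1t1, and het-labelled MYCN ganglia (n = 2) were homozygous for it and labelled Runx1t1 heterozygote. Tumors (n = 4) had the genotype of the MYCN ganglia, and the labels do not give their age. Each library was deposited as a separate sample, and the labels do not say whether ganglia of several animals were pooled, so p-values measure the spread between these samples.

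SR proteins bind exonic enhancers through an RNA-recognition motif and recruit the spliceosome through a domain rich in arginine and serine. The hnRNP proteins coat nascent RNA and often act against SR proteins at neighbouring sites. The Sm proteins form a ring around each spliceosomal snRNA, to which U1-specific and U2-specific proteins are added. MYC-family transcription factors are known to raise the transcription of many RNA-processing genes in proliferating cells, and neurons replace the Sm protein SmB, encoded by Snrpb, in part by its close relative SmN, encoded by the imprinted gene Snrpn.

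Library totals ran from 10692299 to 38618757 counts, and the 6 libraries under 20000000 were all ganglia. The defining markers of sympathetic neurons (12 genes, Th and Dbh among them) summed to between 6010 and 16800 TPM in the 12 ganglia and to between 2450 and 3510 TPM in the tumors, and none of the 12 was at 0 throughout a group. All 8 glial markers and all 6 fibroblast markers were lower in tumors than in control ganglia, with glial sums of 41.1 to 51.2 TPM against 618 to 2270 TPM, and all 8 proliferation genes were higher, with sums of 1350 to 1610 TPM against 78.2 to 303 TPM. The label of the cell type reads neuroblastoma for every sample, although the ganglia carried these neuronal and glial markers. Replicate 2 of the control ganglia stood apart, with 793 TPM of 6 lymphocyte markers where the next highest of all libraries had 7.10 TPM, and with 2250 TPM of 6 myeloid markers. The same library had the lowest neuronal and glial sums of the control ganglia (6010 and 618 TPM) and their highest proliferation sum (303 TPM). Runx1t1 was at 2.78 to 4.41 TPM in control ganglia and at 4.36 to 6.28 TPM in het-labelled control ganglia. It was at 70.3, 7.90 and 37.4 TPM in MYCN ganglia and at 8.83 and 16.9 TPM in het-labelled MYCN ganglia, with overlap in both pairs of groups, so its RNA did not check the het labels. In bulk tissue, fewer cells of a type and less RNA per cell cannot be told apart, and tissue and cell makeup differ between tumors and ganglia, while the age of the tumors is not known from the labels.

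The first comparison asked how the splicing factor genes of established tumors differ from those of normal ganglia. Of the 43 genes, 40 were higher in tumors than in control ganglia, 1 was lower and 2 did not pass the test (edgeR quasi-likelihood test, Benjamini-Hochberg adjusted p under 0.05). Over all genes tested, 27.0% were called higher and 30.7% lower. The median log2 fold change was 1.61 over the 43 genes and −0.11 over all genes tested. With limma on log2(TPM + 1) these medians were 1.18 and −0.43. Log2 fold changes below are edgeR values from normalized counts unless stated, and the TPM printed beside them need not give the same size. All 20 hnRNP genes, 11 of 12 snRNP genes and 9 of 11 SR genes were called higher, with medians of 1.66, 1.61 and 1.47. On TPM, 38 of the 43 genes had every tumor above every control ganglion, which held for 15.4% of all genes tested, while 32.9% had every tumor below. The 4 genes whose TPM ranges overlapped were Srsf5, Srsf12, Hnrnpf and Hnrnpul2, and Snrpn had every tumor below every control ganglion. Within the libraries over 20000000 counts, where 2 control ganglia remained, 40 genes were called higher and 1 lower. That fit called 4341 of all genes higher and 4309 lower.

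**Figure D1:**
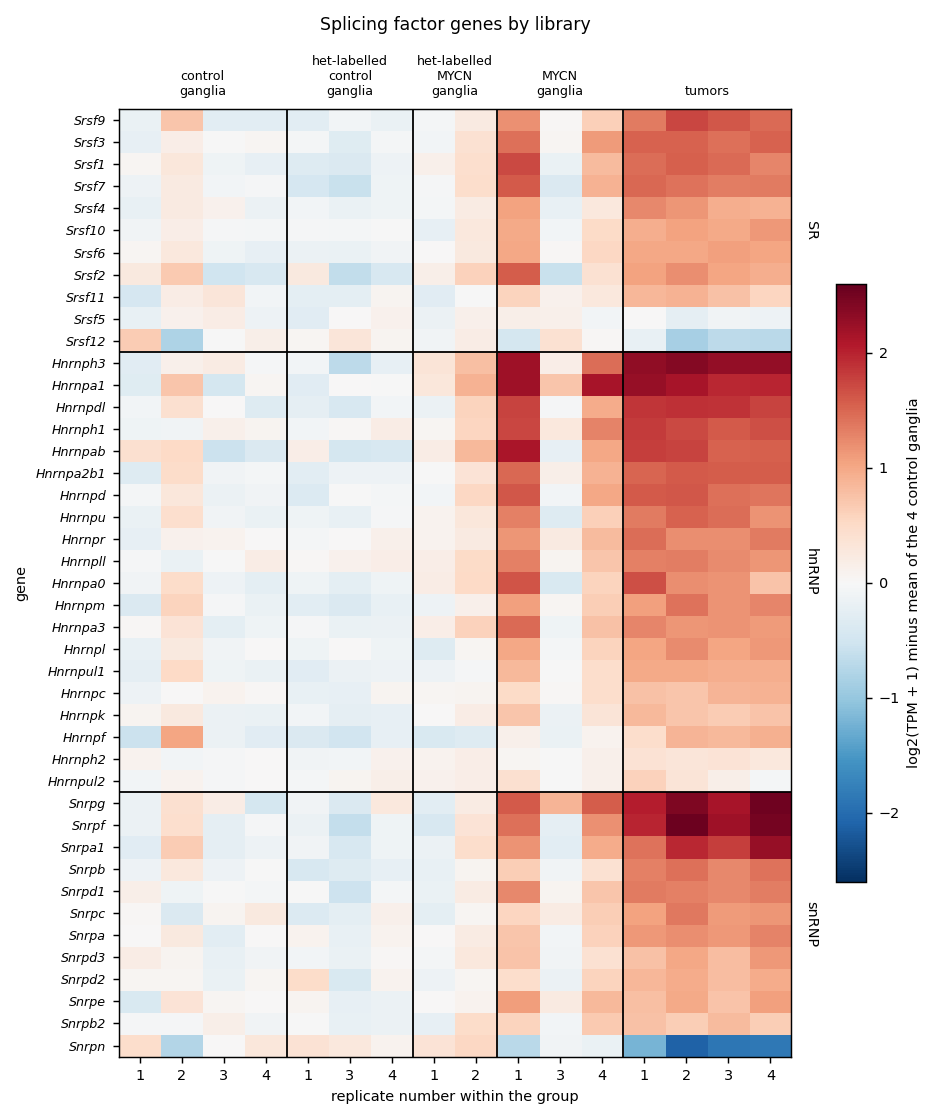
The 43 splicing factor genes (rows, by family and by log2 fold change in tumors) in the 16 libraries (columns, by group and replicate number), colored by log2(TPM + 1) minus the mean of the 4 control ganglia. The 4 tumors are red in nearly every row, blue for Snrpn, more weakly blue for Srsf12 and near 0 for Srsf5. Replicate 1 of the MYCN ganglia resembles them in most rows, while replicate 3 stays near 0.

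Among SR genes, the largest differences were those of Srsf9, Srsf3 and Srsf1. Srsf3, the smallest of the classical SR proteins and an adaptor for mRNA export, was at 71.3, 93.9, 82.4 and 85.7 TPM in the control ganglia and at 242, 241, 225 and 242 TPM in the tumors. Every tumor was therefore above the highest control ganglion, and the log2 fold change was 1.90 ± 0.259 (SE, adjusted p = 4.44e-05). Srsf1, the founding member of the family and a known proto-oncogene, was at 57.9, 68.9, 51.8 and 48.2 TPM in control ganglia and at 155, 167, 158 and 136 TPM in tumors, a log2 fold change of 1.85 ± 0.328 (SE, adjusted p = 0.000317). Srsf9 was at 64.1, 119, 59.8 and 59.2 TPM in control ganglia, where replicate 2 was the highest, and at 185, 244, 223 and 201 TPM in tumors. Its log2 fold change was 1.91 ± 0.292 (SE, adjusted p = 0.000105).

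Srsf2, which binds exonic enhancers and regulates pausing of the polymerase, was the most variable SR gene that passed the test. It was at 142, 192, 83.8 and 89.6 TPM in control ganglia and at 247, 276, 246 and 231 TPM in tumors, with a log2 fold change of 1.39 ± 0.424 (SE, adjusted p = 0.0126). The 2 control ganglia with the highest values, replicates 1 and 2, were those of low depth. Srsf4, Srsf6, Srsf7, Srsf10 and Srsf11 were all higher in tumors, with log2 fold changes of 1.48, 1.43, 1.81, 1.47 and 1.17. Srsf11 was at 55.0, 85.8, 93.3 and 70.5 TPM in control ganglia and 136, 139.9, 128 and 111 TPM in tumors, without overlap. Srsf7 is a close relative of Srsf3, and Srsf10 is the member that represses splicing when it is dephosphorylated.

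The exceptions were Srsf5 and Srsf12. Srsf5 was the most abundant SR gene in control ganglia, at 289, 356, 378 and 301 TPM, and was at 329.6, 280.3, 309 and 299.9 TPM in tumors. The groups overlapped, and the log2 fold change of 0.28 did not pass (adjusted p = 0.111). Its 95% interval was −0.0025 to 0.57, and with TPM in place of normalized counts the sign turned (log2 difference −0.11). Srsf12, a member that antagonizes other SR proteins, was the lowest of the family, at 29.1, 9.89, 18.0 and 20.1 TPM in control ganglia and 15.6, 9.49, 10.8 and 10.66 TPM in tumors, with overlap. Its log2 fold change of −0.29 did not pass either (adjusted p = 0.359), with a 95% interval of −0.82 to 0.23.

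All 20 hnRNP genes were called higher in tumors, over a range of log2 fold changes from 0.69 to 2.77. Hnrnph3, a member of the family that binds runs of G, had the largest difference. It was at 15.9, 21.8, 23.1 and 19.2 TPM in control ganglia and at 102, 108, 100.1 and 99.8 TPM in tumors, a log2 fold change of 2.77 ± 0.363 (SE, adjusted p = 3.38e-05). Its relative Hnrnph1 was at 158, 158, 186 and 178 TPM in control ganglia and at 596, 562, 518 and 545 TPM in tumors, a log2 fold change of 2.13 ± 0.264 (SE, adjusted p = 2.29e-05). The 2 other members of that subfamily differed less. Hnrnph2, which lies on the X chromosome, was at 74.7, 67.1, 69.1 and 70.9 TPM and 91.1, 87.8, 90.7 and 85.7 TPM, with no overlap between the groups and a log2 fold change of 0.76 ± 0.0962 (SE, adjusted p = 2.81e-05), which was 0.33 with limma on log2(TPM + 1). Hnrnpf was at 190.4, 575, 252 and 230.3 TPM in control ganglia and at 386, 520.0, 507 and 534 TPM in tumors, so that replicate 2 of the control ganglia was above all 4 tumors. Its log2 fold change was 1.00 ± 0.304 (SE, adjusted p = 0.012). Without that control ganglion it was 1.56 (adjusted p = 9.05e-06), and a fit restricted to tumors and control ganglia gave 0.99 (adjusted p = 0.0551).

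The A/B-type proteins are the core of hnRNP particles. Hnrnpa1, which blocks splice sites and competes with Srsf1, was at 77.3, 160.2, 70.5 and 100.5 TPM in control ganglia and at 466, 429.7, 377 and 386 TPM in tumors. No tumor overlapped a control ganglion, and the log2 fold change was 2.46 ± 0.339 (SE, adjusted p = 4.87e-05). Near-identical processed copies of Hnrnpa1 exist in the genome, and the way reads were shared between them makes its level uncertain. Hnrnpa2b1, the hnRNP gene with the highest mean TPM, was at 259, 451, 306 and 312 TPM in control ganglia and at 929, 978, 967 and 964 TPM in tumors, with a log2 fold change of 1.95 ± 0.28 (SE, adjusted p = 6.63e-05). Hnrnpab was at 301, 321, 154 and 173 TPM and 782, 759, 654 and 667 TPM, and its log2 fold change of 2.01 had the largest standard error of the family, 0.437. Hnrnpa0 and Hnrnpa3 had log2 fold changes of 1.62 and 1.56.

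Hnrnpdl and Hnrnpd, which bind AU-rich elements, had log2 fold changes of 2.25 and 1.93. Hnrnpdl was at 63.4, 89.6, 67.2 and 52.5 TPM in control ganglia and at 247, 254, 249.6 and 228 TPM in tumors. Hnrnpu, a nuclear scaffold protein of high abundance, was at 295, 444, 309 and 294 TPM in control ganglia and at 847, 957, 912 and 741 TPM in tumors, with a log2 fold change of 1.77 ± 0.306 (SE, adjusted p = 0.000267). Hnrnpk and Hnrnpc, a poly-C binding protein and a poly-U binding protein, differed less, with 1.14 and 1.24. The other members were Hnrnpr (1.74), Hnrnpll (1.70), Hnrnpm (1.61), Hnrnpl (1.52) and Hnrnpul1 (1.34). Hnrnpul2 had the smallest log2 fold change of the family, 0.69 ± 0.166 (SE, adjusted p = 0.00291). Its TPM was 105, 117, 108 and 110.2 in control ganglia and 166, 138, 123 and 106 in tumors, with overlap, and with limma on log2(TPM + 1) it did not pass (0.26, adjusted p = 0.119).

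The largest difference of all 43 genes was that of a snRNP gene. Snrpg, which encodes the Sm ring protein SmG, was at 31.6, 47.7, 40.8 and 25.4 TPM in control ganglia and at 148, 194, 160.0 and 209 TPM in tumors. The lowest tumor was above the highest control ganglion, and the log2 fold change was 2.81 ± 0.296 (SE, adjusted p = 7.23e-06). Snrpf, which encodes SmF, was at 105, 159, 99.3 and 115 TPM in control ganglia and at 469.9, 695, 547 and 663 TPM in tumors, a log2 fold change of 2.75 ± 0.343 (SE, adjusted p = 2.44e-05). Snrpe, whose product SmE forms a subcomplex with SmF and SmG, was at 108, 182, 147 and 144 TPM in control ganglia and at 247, 284, 241 and 300.3 TPM in tumors. Its log2 fold change was 1.36 ± 0.211 (SE, adjusted p = 0.000115), smaller than that of either partner, and the difference between these genes was not tested. The SmD genes Snrpd1, Snrpd2 and Snrpd3 had log2 fold changes of 1.76, 1.40 and 1.40. Snrpd2 had the highest mean TPM of the snRNP genes after Snrpn, at 213, 212, 182 and 213 TPM in control ganglia and 376, 400.3, 359.6 and 401 TPM in tumors. Small genes of this kind have processed copies as well, which makes their levels uncertain.

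The genes of the U1-specific and U2-specific proteins were also higher. Snrpa1, which encodes a protein of the U2 particle, was at 27.8, 54.5, 29.2 and 31.2 TPM in control ganglia and at 93.2, 136, 123 and 169.6 TPM in tumors, a log2 fold change of 2.29 ± 0.35 (SE, adjusted p = 0.000104). The product of Snrpb2 is its partner on the U2 snRNA, and Snrpb2 was at 42.6, 42.2, 48.7 and 40.6 TPM and 74.8, 67.9, 77.7 and 68.4 TPM, a log2 fold change of 1.16 ± 0.195 (SE, adjusted p = 0.000212). The U1 genes Snrpa and Snrpc, which encode proteins of the U1 particle, had log2 fold changes of 1.60 and 1.62.

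Snrpn was the only one of the 43 genes called lower in tumors. It was at 634, 270.2, 468 and 567 TPM in the control ganglia and at 199.6, 106, 125 and 127 TPM in the tumors. Every tumor was below every ganglion of any group, and the log2 fold change against control ganglia was −1.36 ± 0.237 (SE, adjusted p = 0.000284). Its relative Snrpb went the other way, from 116, 155, 116 and 127 TPM in control ganglia to 319.6, 346, 304 and 341 TPM in tumors, a log2 fold change of 1.78 ± 0.185 (SE, adjusted p = 6.83e-06). The ratio of Snrpn to Snrpb TPM was 5.46, 1.74, 4.03 and 4.47 in the control ganglia and 0.624, 0.307, 0.412 and 0.372 in the tumors. All 4 tumors were therefore below 1 and all 12 ganglia above it, with replicate 2 of the control ganglia the lowest of that group and replicate 1 of the MYCN ganglia, at 1.41, the lowest of the ganglia. The summed TPM of both genes was between 429 and 519 in tumors and between 425 and 750 in control ganglia. Snurf, which shares its transcription unit with Snrpn but has a row of its own, was at 49.2, 19.7, 54.7 and 65.5 TPM in control ganglia and at 11.7, 8.78, 8.62 and 16.02 TPM in tumors. Snrpn and Snrpb code for very similar proteins, and Snrpn and Snurf overlap, so the division of reads between these rows is uncertain. Neuronal markers were lower in tumors as well, as given above, and their part in the Snrpn result was not tested.

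**Figure D2:**
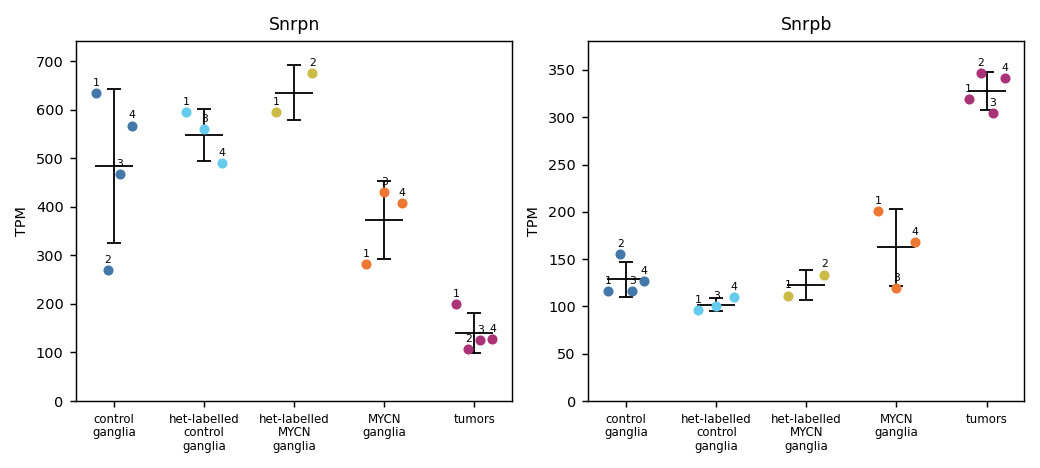
TPM of Snrpn (left) and Snrpb (right) in each library, by group, with the replicate number beside each point and the mean ± SD of the group as a bar. The 4 tumors lie below all 12 ganglia for Snrpn and above all 12 for Snrpb.

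Summed over a family, SR genes were at 1025 ± 141 TPM (SD, n = 4) in control ganglia and at 1858 ± 67.0 TPM (SD, n = 4) in tumors. The hnRNP genes were at 2992 ± 631 TPM (SD, n = 4) and 7068 ± 260 TPM (SD, n = 4), with replicate 2 of the control ganglia at 3939 TPM and the other 3 between 2668 and 2692 TPM. The snRNP genes were at 1649 ± 108 TPM (SD, n = 4) and 3084 ± 248 TPM (SD, n = 4). The ratios of the tumor mean to the control mean were 1.81 for SR, 2.36 for hnRNP and 1.87 for snRNP genes. Single abundant genes weighed on these sums. Without Srsf5 the SR ratio was 2.24, and without Snrpn the snRNP ratio was 2.53. Srsf5 and Snrpn were also the most abundant members of their families in the mean over all libraries. TPM values are shares of a fixed total, and the tumors also had more reads of the ribosomal RNA gene Rn45s, at 28173 to 43642 TPM against 9907 to 20327 TPM in control ganglia, whose part in the result was not tested.

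**Figure D3:**
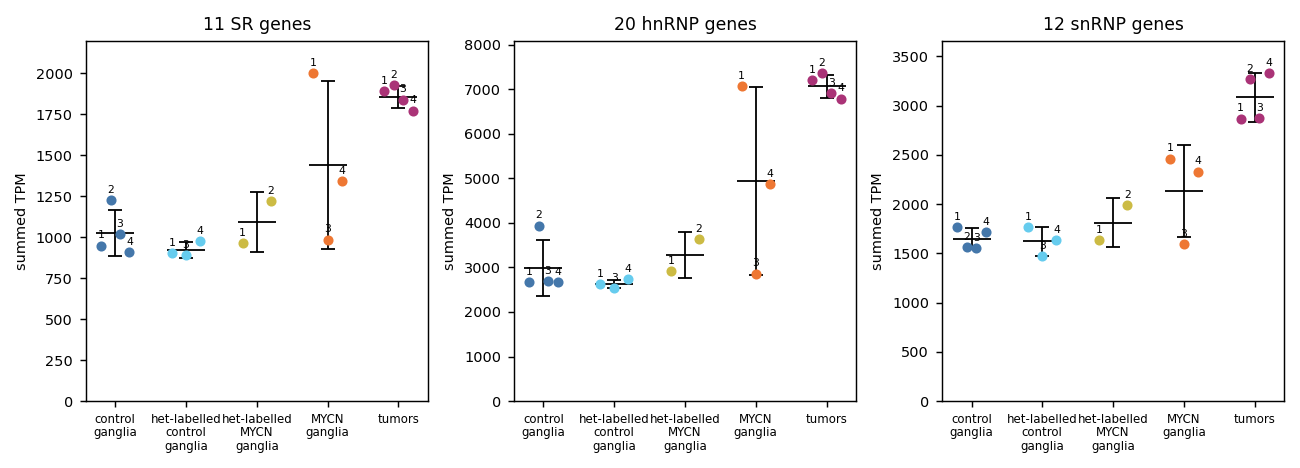
Summed TPM of the 11 SR, 20 hnRNP and 12 snRNP genes in each library, by group, with replicate numbers beside the points and the mean ± SD of the group as a bar. Tumors lie between 1773 and 1926 TPM for SR genes and between 6792 and 7358 TPM for hnRNP genes, and the 3 MYCN ganglia spread from control level to tumor level for both, while for snRNP genes they reach at most 2460 TPM and the lowest tumor is at 2868 TPM.

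Other genes of the splicing machinery were counted from lists, beside 27.0% of all genes called higher and 30.7% called lower in the same comparison. Of 26 further proteins of the U1, U2 and tri-snRNP particles, 24 were higher in tumors than in control ganglia and none was lower, with Snrnp40, Sf3a2 and Sf3a3 the highest (log2 fold changes of 2.13, 2.05 and 1.88) and Snrnp48, Sf3b1 and Snrnp25 the lowest (0.51, 0.54 and 0.62). Snrnp48 and Sf3b1 did not pass. All 8 Lsm genes, which encode the ring of the U6 snRNA and its cytoplasmic relative, were higher, from 0.65 for Lsm1 to 2.19 for Lsm2. Of 11 genes for snRNP assembly, 10 were higher, with Gemin6 at 2.47, and Gemin7 was lower (−0.42). Among 8 SR protein kinases and transport genes, 4 were higher and none lower, with 1.29 for Srpk1, the kinase that sends SR proteins to the nucleus, and −0.26 for Clk1, which did not pass. All 7 SR-related regulators were higher, from 0.55 for Son to 1.53 for Tra2b.

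Of 19 neural regulators of splicing, 6 were higher and 4 lower in tumors, where 27.0% of all genes were higher and 30.7% lower, so that these shares were near those of all genes. Celf6 was at 239 ± 88.3 TPM (SD, n = 4) in control ganglia and at 14.1 ± 6.01 TPM (SD, n = 4) in tumors, a log2 fold change of −3.64, and Mbnl2 and Celf2 were lower too, at −1.99 and −0.81. Celf5, Elavl3 and Srrm3 were the highest, with 2.17, 1.80 and 1.79. Of 9 tested non-neural regulators (10 listed), 4 were higher, with Elavl1 at 2.10 and Ptbp1, the repressor of neuronal exons, at 1.80, and 2 were lower, namely Qk at −1.31 and Ptbp3 at −1.19. The lists and the 43 genes share this comparison's control ganglia and tumors.

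As 40 of the 43 genes were higher in tumors with a MYCN transgene, their promoters were searched for CACGTG, the E-box that heterodimers of MYC-family proteins and MAX bind best, and for the variant CGCGTG on both strands. A match of CACGTG cannot overlap one of CGCGTG. RefSeq windows (GRCm38.p6) of 250 bases before to 50 bases after a start were matched by symbol for 39 of the 43 genes, 55 windows in all, and a gene counted once. CACGTG was found for 6 of the 39 genes (15.4%), against 8.09% of all 27025 genes with a window and 10.9% of the 12404 genes tested that have one. CGCGTG was found for 10 of the 39 (25.6%), against 10.5% and 18.2%. Such a match is a description of these letters and not a binding site. The genes with CACGTG were Hnrnpa3, Hnrnpd, Hnrnpf, Snrpa, Hnrnph2 and Hnrnpm, the last 2 with the motif past the start. For the other 4, the 250 bases before a start are shown 5′ to 3′ on the strand of the gene, with CACGTG in capitals, as the members that hold the motif upstream.
Snrpa, chr7:27196272-27196521, minus strand: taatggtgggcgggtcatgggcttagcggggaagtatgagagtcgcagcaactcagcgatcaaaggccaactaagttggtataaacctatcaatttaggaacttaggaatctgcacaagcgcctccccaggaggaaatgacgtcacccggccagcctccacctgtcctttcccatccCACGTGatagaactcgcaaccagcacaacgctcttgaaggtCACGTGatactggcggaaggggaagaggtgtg
Hnrnpd, chr5:99978939-99979188, minus strand: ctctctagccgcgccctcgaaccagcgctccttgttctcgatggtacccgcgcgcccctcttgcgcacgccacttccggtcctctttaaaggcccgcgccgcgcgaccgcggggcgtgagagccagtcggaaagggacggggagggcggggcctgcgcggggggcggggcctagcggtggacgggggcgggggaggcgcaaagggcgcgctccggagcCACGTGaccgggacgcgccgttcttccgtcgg
Hnrnpa3, chr2:75659009-75659258, plus strand: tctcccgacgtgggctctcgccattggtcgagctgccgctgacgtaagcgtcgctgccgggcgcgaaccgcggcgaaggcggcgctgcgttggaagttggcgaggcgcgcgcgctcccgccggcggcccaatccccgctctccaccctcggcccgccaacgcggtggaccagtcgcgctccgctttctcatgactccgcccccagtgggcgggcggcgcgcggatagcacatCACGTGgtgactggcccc
Hnrnpf, chr6:117907554-117907803, plus strand: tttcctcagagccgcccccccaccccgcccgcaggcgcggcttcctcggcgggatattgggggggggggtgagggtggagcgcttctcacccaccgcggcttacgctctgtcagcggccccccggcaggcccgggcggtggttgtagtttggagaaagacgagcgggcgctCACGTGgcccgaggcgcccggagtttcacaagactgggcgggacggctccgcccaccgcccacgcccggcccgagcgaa

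Snrpa held the motif at 2 places in this window, starting 73 and 32 bases before the RefSeq start, and at 1 place in a second window of its own. In Hnrnpd, Hnrnpa3 and Hnrnpf it started 32, 18 and 79 bases before theirs. The window of Hnrnpf belongs to an alternative start and lies inside the gene as GENCODE M21 gives it (chr6:117900324-117925622). The log2 fold change in tumors was above the median of the 43 genes for Hnrnpd (1.93). It was below that median for Snrpa, Hnrnpa3 and Hnrnpf (1.60, 1.56 and 1.00). Snrpg, Snrpf, Hnrnph3 and Hnrnpa1, which had the largest differences, had no CACGTG in their windows. The genes with CGCGTG were Hnrnpdl, Hnrnph1, Hnrnpr, Snrpa, Snrpa1, Snrpb2, Snrpd3, Srsf11, Srsf3 and Srsf6. A link between either motif and the fold changes was not tested.

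Many splicing factors are known to limit their own RNA through transcripts that undergo nonsense-mediated decay. In the GENCODE M21 annotation of GRCm38, such a transcript was listed for 9 of 11 SR genes (81.8%), 10 of 20 hnRNP genes (50.0%) and 4 of 12 snRNP genes (33.3%), against 26.2% of 15141 protein-coding genes tested. A transcript with a retained intron was listed for 31 of the 43 genes (72.1%), against 54.5%. The values in the tables are sums per gene, so the share of productive RNA was not measured.

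The second comparison placed the tumors against MYCN ganglia, which carry the same genotype. Here 30 of the 43 genes were higher in tumors, Snrpn was lower and 12 did not pass, against 14.0% of all genes called higher and 20.5% lower. The median log2 fold change was 0.86 over the 43 genes and −0.01 over all genes, and 0.61 and −0.33 with limma on log2(TPM + 1). Snrpf (1.76, standard error 0.366), Snrpa1 (1.53, standard error 0.376) and Snrpb (1.39, standard error 0.202) differed most, and Snrpn had a log2 fold change of −1.02 (adjusted p = 0.0066). The 12 genes that did not pass were Srsf1, Srsf2, Srsf5, Srsf7, Srsf12, Hnrnpa0, Hnrnpa1, Hnrnpa3, Hnrnpab, Hnrnpd, Hnrnpul2 and Snrpe. Hnrnpa1 was among them with 0.65 (adjusted p = 0.166). On TPM, 17 genes had every tumor above every MYCN ganglion, against 8.32% of all genes, and Snrpn had every tumor below, against 32.8%. The count of 30 turned on which MYCN ganglia entered: 14 genes passed when replicate 3 was left out, 16 when replicate 4 was, and 39 when replicate 1 was. Over all genes the higher calls moved alike, from 2340 to 1230, 1296 and 3138. A fit restricted to tumors and MYCN ganglia called 18 (1759 of all genes), and 39 (3376 of all genes) passed within the libraries over 20000000 counts, which leave replicates 3 and 4 of the MYCN ganglia.

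The third comparison asked how ganglia of 2-week-old mice with the transgene differ from those without it. The labels do not say whether early tumor was present in the MYCN ganglia. Between MYCN ganglia and control ganglia, 3 of the 43 genes passed, all higher with MYCN, against 0.834% of all genes called higher and 0.102% lower. They were Hnrnpa1, Hnrnph1 and Snrpg. Hnrnpa1 was at 452, 161 and 431 TPM in replicates 1, 3 and 4 of the MYCN ganglia, and the highest control ganglion was at 160.2 TPM. Its log2 fold change was 1.81 ± 0.348 (SE, adjusted p = 0.0379). Hnrnph1 was at 568, 204 and 413 TPM in the MYCN ganglia, against at most 186 TPM in control ganglia, with a log2 fold change of 1.28 ± 0.272 (SE, adjusted p = 0.0459). Snrpg was at 109, 66.4 and 108 TPM in the MYCN ganglia, against at most 47.7 TPM, with a log2 fold change of 1.43 ± 0.301 (SE, adjusted p = 0.0455). In all 3 genes each MYCN ganglion was above each control ganglion, replicate 1 the highest. Hnrnpr was the fourth gene of which this held, which was so for 4.93% of all genes. None of the 43 had every MYCN ganglion below, against 4.16%.

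None of the 3 calls was stable. Without replicate 1 of the MYCN ganglia, the edgeR log2 fold change of Hnrnpa1 was 1.47 (adjusted p = 0.256), that of Snrpg was 1.32 (adjusted p = 0.262) and that of Hnrnph1 was 0.83 (adjusted p = 0.32). The number of the 43 genes called higher was 0 without replicate 1 or replicate 4 of the MYCN ganglia, 30 without replicate 3, 10 without replicate 2 of the control ganglia and 0 without any other of the control ganglia. Calls over all genes moved alike, from 139 higher to 0, 1458, 572 and 0. Libraries of other groups, which share the fit, changed the number too. It was 0 without any 1 of the het-labelled control ganglia or of tumor replicates 2, 3 and 4, and 1 without tumor replicate 1 or het-labelled MYCN replicate 2. Higher calls over all genes fell too, to between 0 and 21 in the former runs and to 89 and 79 in the latter. It was 14 with DESeq2, which called 930 of all genes higher, and 0, as for all genes, with only these groups in the fit or within the libraries over 20000000 counts. Without adjustment, 29 of the 43 genes had p under 0.05, against 19.8% of all genes, and 40 had a positive log2 fold change. The median was 0.67 over the 43 genes and −0.04 over all genes.

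**Figure D4:**
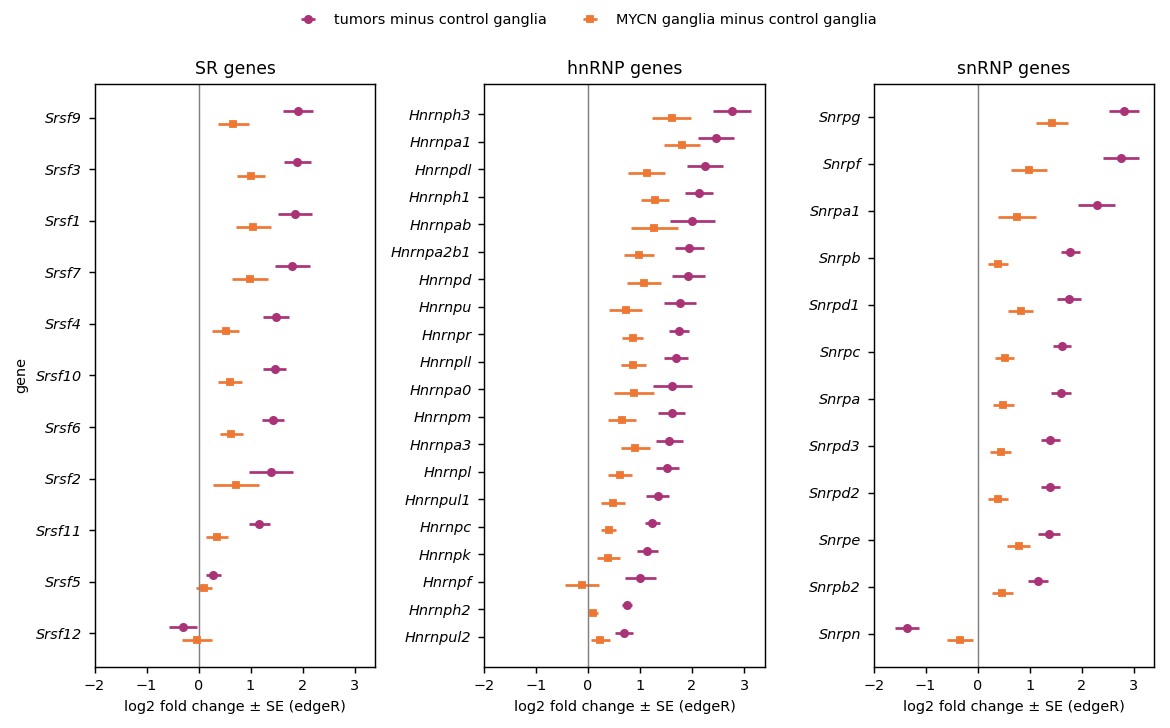
Log2 fold change ± standard error (edgeR) of each of the 43 genes in tumors (circles) and in MYCN ganglia (squares), each against the same 4 control ganglia, by family. All circles but those of Srsf12 and Snrpn lie right of 0, and the squares run from −0.34 for Snrpn to 1.81 for Hnrnpa1.

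The 3 MYCN ganglia differed widely among themselves. In replicate 1, 37 of the 43 genes were above all 7 ganglia without the transgene (23.3% of all genes tested), in replicate 4 it was 34 (20.1%), and in replicate 3 it was 4 (11.2%), namely Hnrnpa1, Hnrnph1, Hnrnpr and Snrpg. The median of log2(TPM + 1) minus the mean of the control ganglia came to 1.09, −0.03 and 0.63 for replicates 1, 3 and 4, where the tumors had 1.14 to 1.25. The hnRNP genes of replicates 1, 3 and 4 summed to 7077, 2861 and 4867 TPM, so that replicate 1 was within the range of the tumors and replicate 3 near the control ganglia. Proliferation genes moved with this order, at 1120, 114 and 602 TPM in replicates 1, 3 and 4. Markers of glia, at 533, 2175 and 1396 TPM, of fibroblasts, at 888, 3616 and 2946 TPM, and of sympathetic neurons, at 6530, 12090 and 10490 TPM, moved against it. Replicate 1 was the only one of the 3 with under 20000000 counts (11240429), and its Rn45s level, 33499 TPM, was within the range of the tumors where replicates 3 and 4 had 18643 and 19575 TPM. The part of these measures in the result was not tested. Replicate 1 matched or passed the lowest tumor for 25 of the 43 genes (85.3% of all genes tested), replicate 3 for 4 (75.1%) and replicate 4 for 7 (82.3%), and the 2 het-labelled MYCN ganglia for 4 each (75.4% and 76.3%). The 25 genes of replicate 1 included Srsf1, at 187, 49.5 and 99.7 TPM in the 3 replicates, and Hnrnpab, at 985, 194 and 451 TPM. Snrpf was not among them, with 319, 99.3 and 271 TPM against at least 469.9 TPM in tumors.

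The last comparisons concerned the Runx1t1 genotype. No gene of the 43 passed between het-labelled MYCN ganglia and MYCN ganglia by edgeR (0.0120% of all genes did), and DESeq2 called 1 lower, among 98 lower and 166 higher of all genes. Without adjustment 21 had p under 0.05, against 12.6% of all genes. Log2 fold changes were negative for 42 of the 43 genes, Snrpn being the exception at 0.67, with a median of −0.65 against −0.09 over all genes. Snrpg had the most negative value, −1.62 ± 0.384 (SE, adjusted p = 0.243), and was at 29.1 and 41.0 TPM in the het-labelled MYCN ganglia against 109, 66.4 and 108 TPM in the MYCN ganglia. Hnrnpa1 was at 119 and 181 TPM against 452, 161 and 431 TPM, with −1.32 ± 0.435 (SE, adjusted p = 0.309). Replicate 3 of the MYCN ganglia was again the point on which the count turned, since 10 genes were called lower in the het-labelled ganglia without it, among 236 of all genes.

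None of the 43 genes passed between het-labelled MYCN ganglia and het-labelled control ganglia by edgeR or DESeq2. Of all genes tested, edgeR called 0 too, and DESeq2 called 9 higher and 5 lower. Without adjustment, 0 of the 43 had p under 0.05 by edgeR, where 1.45% of all genes did. The median log2 fold change was 0.21, against −0.01 over all genes. It was positive for 36 of the 43 genes and for 47.5% of all genes. On TPM, 15 of the 43 genes had both het-labelled MYCN ganglia above the 3 het-labelled control ganglia, against 13.8% of all genes. None had both below, against 9.02%. The 2 ganglia were unlike. In replicate 2, 20 of the 43 genes were above all 7 ganglia without the transgene (13.3% of all genes), and in replicate 1 only Hnrnph3 was (13.6%), at 25.4 and 34.6 TPM in replicates 1 and 2. Their proliferation sums were 88.0 and 237 TPM.

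Without the transgene, none of the 43 genes passed between het-labelled and wild-type ganglia by edgeR or DESeq2. Here too edgeR called 0 of all genes, and DESeq2 called 1 higher and 4 lower. An unadjusted p under 0.05 by edgeR was found for 0 of the 43 and for 4.12% of all genes. The median log2 fold change was −0.18, against −0.03 over all genes, and the values ran from −0.56 to 0.16. The interaction of transgene and Runx1t1 genotype passed for none of the 43 genes by edgeR or DESeq2. It passed for 0 of all genes by edgeR, while DESeq2 called 19 higher and 12 lower. Of the 43 genes, 3 had an unadjusted p under 0.05 by edgeR, as did 5.62% of all genes. With 2 to 4 ganglia a group, absence of a difference was not shown.

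Tumors compared with het-labelled MYCN ganglia gave 39 higher genes, Snrpn lower and 3 that did not pass (Srsf2, Srsf5 and Srsf12), against 22.0% and 23.5% of all genes. Without het-labelled MYCN replicate 1 the higher count was 29, while that of all genes moved from 3668 to 1611. The median log2 fold change was 1.61 over the 43 genes and 0.07 over all genes, and 1.14 and −0.40 with limma on log2(TPM + 1). Snrpg had the largest value, 3.00 ± 0.4 (SE, adjusted p = 6.6e-05), and Snrpn was at −1.69 ± 0.275 (SE, adjusted p = 0.000292). On TPM, 39 genes had every tumor above both ganglia, against 20.4% of all genes, and Snrpn and Srsf12 had every tumor below, against 45.5%. Both het-labelled MYCN ganglia were of low depth and every tumor of high depth, so no depth-matched fit could be made. With a depth term estimated over all 5 groups, 40 of the 43 genes were higher, as were 3746 of all genes, and Srsf2 was among them, with an edgeR log2 fold change of 2.36 against 1.16 without the term (adjusted p = 0.000375 against 0.0929). Srsf2 also passed with the replicate block, with the fit of these groups alone, and without replicate 1 or replicate 3 of the MYCN ganglia (adjusted p = 0.00625, 0.00311, 0.0288 and 0.0433). This comparison shares its tumors with the others.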

How the data were processed

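RNA of 12 celiac ganglia and 4 tumors was sequenced. The protocol names a stranded total RNA kit and the molecule label reads polyA RNA, a conflict that bears on ribosomal reads and on TPM shares. Per the labels and the methods of the study, the authors aligned reads to mm10 with STAR, used SAMtools, and deposited RSEM expected counts and TPM per gene. The annotation and the use of strand are not given in the sources used here. The expected counts were rounded, genes with low counts were removed with filterByExpr, and all 5 groups were fitted with edgeR 4.0.16 (R 4.3.3, TMM scaling, quasi-likelihood test, Benjamini-Hochberg adjustment over 16665 genes, threshold 0.05). The standard error is the log2 fold change over the root of F, and a 95% interval is normal. TPM served for levels and ranges. Alternatives used DESeq2 1.42.0 and limma 3.58.1, other scalings and filters, added terms, and single libraries left out. The fit was tested on simulated data. Same-numbered control ganglia and tumors deviated together (r from 0.149 to 0.319 in 4 pairs), a pairing seen in the data and not stated in the labels. No other pair of groups with 3 or more pairs had every r over 0.1. The members and lists were chosen with earlier results of these data known. Genes given per library were, in each family, the 3 of highest mean TPM, the 3 with the largest and the 3 with the smallest log2 fold change in tumors, those that passed between ganglia, and Snrpb and Snrpn. The human MYCN transcript was not analysed here.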

Additional observations from a re-analysis of the deposited data

Results flagged for a closer look

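In 4 genes, replicate 2 of the control ganglia lay farther above the other 3 than the spread of the group allowed by Dixon's criterion. It had 575 TPM of Hnrnpf against 252 TPM in the nearest library, 444 TPM of Hnrnpu against 309 TPM, 54.5 TPM of Snrpa1 against 31.2 TPM and 119 TPM of Srsf9 against 64.1 TPM. The same library had 793 TPM of lymphocyte markers and 2250 TPM of myeloid markers, and their part in these values was not tested. Replicate 3 of the control ganglia was low for Snrpd2, at 182 TPM against 212 TPM in the nearest library. Tumor replicate 3 was low for Srsf3, at 225 TPM against 241 TPM. These are 6 of 50 groups of 4 libraries examined, and chance flags about 1 in 20.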

How the results depend on the processing

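The 40 genes higher and 1 lower in tumors than in control ganglia were 39 to 40 and 1 under the alternatives run. Calls over all genes ran from 2847 to 4814 higher and from 4122 to 6443 lower. Srsf5 turned to −0.11 with limma on log2(TPM + 1) and on log2(TPM + 0.1), where the median of all genes moved from −0.11 to −0.43. The higher share of all calls fell from 46.8% to 30.9% there and to 40.6% with library size alone. It moved from 40.7% to 19.8% (limma) and 29.9% (library size) for tumors against MYCN ganglia, from 48.4% to 28.2% (limma) for tumors against het-labelled MYCN ganglia, and from 89.1% to 47.6% (limma) and 72.4% (DESeq2) for MYCN against control ganglia. The 30 genes higher in tumors than in MYCN ganglia became 18 in a fit of those groups alone, and 14 to 39 with single libraries left out. The 3 genes higher in MYCN than in control ganglia (139 of all genes) became 5 with upper-quartile scaling (220 of all genes) and 14 with DESeq2 (930). With limma on log2(TPM + 1) and log2(TPM + 0.1) they became 1 and 0 (10 of all genes in each). A depth term gave 6 (282 of all genes) and a sex term 1 (41). The count was 0, as for all genes, with only the groups compared and in the depth-matched libraries (an alternative chosen after seeing the data). With single libraries left out it was 0 to 30, where 0 to 1458 of all genes were called higher. For het-labelled MYCN against MYCN ganglia, 0 genes lower became 1 with DESeq2 and 0 to 10 with single libraries left out. The summed ratio was 2.24 for SR genes without Srsf5 and 2.53 for snRNP genes without Snrpn. With the replicate number as a block, no call of the 43 genes changed between tumors and control ganglia. The block left 0 of the 43 genes and 0 of all genes called between MYCN and control ganglia. There the edgeR adjusted p of Hnrnpa1, Hnrnph1 and Snrpg was 0.0736, 0.0758 and 0.0736. Between tumors and MYCN ganglia it left 28 of the 43 genes higher, and 1961 of all genes where the main fit called 2340. In neither comparison did all same-numbered libraries deviate together. The cause of these changes was not tested. Het-labelled MYCN ganglia were all of low depth, so their comparisons could not be depth-matched.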
